A study of Homo sapiens with 6 samples.

Results

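Aminoacyl-tRNA synthetases, the enzymes that attach each amino acid to its transfer RNA, were compared between T24 cells with a hairpin against MTHFD2 and T24 cells with a control vector. Members were the rows of the count table whose symbol is a single capital letter followed by ARS, alone or with the digit 1 or 2, together with EPRS, FARSA, FARSB and the scaffold genes AIMP1 and AIMP2. The rule found 39 of the 54261 genes in the table, namely 20 genes for cytosolic enzymes, 17 for mitochondrial enzymes (symbols ending in 2) and 2 scaffolds. Members were chosen by symbol.

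The shRNA2 group was 3 libraries of T24, a human bladder carcinoma line, carrying the lentiviral construct numbered 2 of the 3 against MTHFD2, and the NC group was 3 libraries of T24 with the same ZsGreen and puromycin vector as a negative control. Both groups were puromycin-selected stable lines of 1 parental cell line, and the shRNA2 group carried 1 hairpin. They were grown in high-glucose medium with serum. The series' design text calls the change a knockout, while the titles and the treatment protocol name a hairpin, so it is called a knockdown here. Measurements were RNA sequencing counts per gene. In bulk RNA, fewer cells of a type and less RNA per cell cannot be told apart.

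Each synthetase recognises its own amino acid, activates it with ATP and transfers it to the matching tRNA, so the family sets the supply of charged tRNA to the ribosome. Most amino acids have separate nuclear genes for the cytosolic and the mitochondrial enzyme, while GARS and KARS serve both compartments and EPRS joins the enzymes for glutamate and proline in a single protein. EPRS, IARS, LARS, MARS, QARS, RARS, KARS and DARS sit in the cytosolic multi-synthetase complex, which AIMP1 and AIMP2 hold together. Uncharged tRNA is the signal that activates the kinase GCN2, and the transcription factor ATF4 downstream of it is known to induce many cytosolic synthetase genes. MTHFD2 is an enzyme of the mitochondrial folate cycle, which supplies single-carbon units such as those used to build purines.

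Libraries held 17801990 to 19978392 counts, and 13896 genes passed the filter on low counts and were tested. MTHFD2 had 538, 667 and 686 counts in shRNA2 cells, against 3241, 3613 and 3417 in NC cells. Its level was 32.4 ± 5.12 CPM (counts scaled to library size) in shRNA2 cells and 185 ± 3.18 CPM in NC cells (SD, n = 3 each), a log2 fold change of -2.51 ± 0.13 (SE; edgeR adjusted p = 1.8e-06). Library depth was similar, but marker genes of another cell type differed: 10 fibroblast genes, none at 0 over all libraries, summed to 46.0, 12.1 and 40.2 CPM in shRNA2 cells and 7.3, 9.25 and 7.81 CPM in NC cells. A set of 9 epithelial markers summed to 984 to 1300 CPM in shRNA2 cells and 2090 to 2500 CPM in NC cells, carried by KRT7, KRT8 and KRT18, while UPK3A was at 0 and EPCAM, CDH1, GATA3, KRT19 and UPK2 had at most 11 counts in any library. Leukocyte and endothelial marker sums stayed between 1.12 and 3.31 CPM in every library. Whether these counts came from other cells or from the T24 cells themselves was not tested, nor was any part of this in the results below. In shRNA2 replicate 2, the library with the lowest fibroblast sum of its group, set alone against the NC libraries, the log2 fold changes of the 3 called genes described next were -0.81 for AIMP2, -0.72 for FARSA and -0.47 for WARS. That is 1 library, and it was also the lowest of its group for all 3 genes.

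Of the 39 genes, 37 passed the filter on low counts and 3 were lower in shRNA2 cells at an edgeR adjusted p under 0.05: the scaffold AIMP2 and the cytosolic enzymes FARSA and WARS. None was higher. These 3 are 8.11% of the members tested, whereas 17.3% of all genes tested were called, 7.58% lower and 9.71% higher in shRNA2 cells, so the share of members lower in shRNA2 cells was near that of all genes and gives no result about the family. Changes were small: log2 fold changes had a median of -0.13, against 0.01 for all genes, with 28 members below 0 and 9 above. At an unadjusted p under 0.05 there were 12 of the 37 members tested, beside 4636 of all 13896 genes tested.

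AIMP2, the scaffold that anchors enzymes of the complex to each other, lies on the plus strand of chromosome 7 (chr7:6009245-6023834, GRCh38, GENCODE 29). It had 1081, 780 and 960 counts in shRNA2 cells, against 1221, 1210 and 1394 in NC cells, or 53.7, 39.3 and 51.4 CPM against 69.6, 62.9 and 74.0 CPM. All shRNA2 libraries lay below all NC libraries, with replicate 2 lowest. The mean was 48.2 ± 7.75 CPM in shRNA2 cells and 68.8 ± 5.6 CPM in NC cells (SD, n = 3 each), 0.7 times the NC level, a log2 fold change of -0.52 ± 0.13 (SE; 95% interval -0.80 to -0.23; edgeR adjusted p = 0.0204).

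FARSA encodes the alpha subunit of cytosolic phenylalanyl-tRNA synthetase, a tetramer of alpha and beta chains, and lies on the minus strand at chr19:12922479-12934037. It had 111, 80.1 and 85.5 CPM in shRNA2 cells, against 124, 126 and 144 CPM in NC cells. Here too the groups did not overlap, with shRNA2 replicate 1 nearest to NC. The means were 92.1 ± 16.4 CPM in shRNA2 cells and 131 ± 10.9 CPM in NC cells (SD, n = 3 each), giving 0.703 times the NC level, or log2 -0.51 ± 0.13 (SE; 95% interval -0.79 to -0.23; edgeR adjusted p = 0.0212).

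WARS, the cytosolic tryptophanyl-tRNA synthetase and a gene long known to be induced by interferon, lies on the minus strand at chr14:100333788-100376805. Levels were 88.7, 78.1 and 79.9 CPM in shRNA2 cells, against 105, 106 and 112 CPM in NC cells. The groups again stood apart. The means were 82.2 ± 5.66 CPM in shRNA2 cells and 108 ± 3.58 CPM in NC cells (SD, n = 3 each), 0.762 times the NC level, or log2 -0.39 ± 0.10 (SE; 95% interval -0.61 to -0.18; edgeR adjusted p = 0.02).

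These calls lie close to the threshold, and each was lost in some of the fits that left out a library. Those fits also called fewer of all genes, beside 2402 in the main fit. They called 1003, 1679 and 986 without NC replicates 1, 2 and 3, and 1469 without shRNA2 replicate 2. The log2 fold changes of the 3 genes stayed below 0 whichever library was left out. AIMP2 and FARSA passed in 4 of 6 fits that left out a library and were lost without NC replicate 1 (edgeR adjusted p = 0.0697 and 0.0526) or NC replicate 3 (0.0802 and 0.087), while WARS was lost without each of the NC replicates in turn (0.0728, 0.0576 and 0.0816) or without shRNA2 replicate 2 (0.0522). AIMP2 shares 1591 bases with EIF2AK1 on the other strand and WARS shares 388 bases with WDR25, and the strand setting of the counting is not given in the sources used here, so reads in those stretches could come from either gene. The antisense genes FARSA-AS1, over 2775 bases of FARSA, and AL157871.4, over 20272 bases of WARS, lie on the other strand too and were not analysed here. Counts of EIF2AK1 were 3849, 3873 and 3508 in shRNA2 cells and 3045, 3445 and 3409 in NC cells (log2 0.11, adjusted p = 0.433).

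The upstream stretches of these 3 genes are shown because they are the members whose transcript changed. Each run is the 100 bases before the annotated start in RefSeq's GRCh38.p14 table, on the gene's strand, all in lower case since no motif searched lies in them (AIMP2 chr7:6009172-6009271 plus, FARSA chr19:12933712-12933811 minus, WARS chr14:100376328-100376427 minus).
AIMP2: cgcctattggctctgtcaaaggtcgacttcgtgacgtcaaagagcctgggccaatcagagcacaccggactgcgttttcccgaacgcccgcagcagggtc
FARSA: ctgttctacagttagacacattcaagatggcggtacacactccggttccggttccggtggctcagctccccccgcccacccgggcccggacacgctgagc
WARS: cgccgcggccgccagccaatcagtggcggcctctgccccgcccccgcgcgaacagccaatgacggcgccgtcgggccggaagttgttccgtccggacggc

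**Figure D1:**
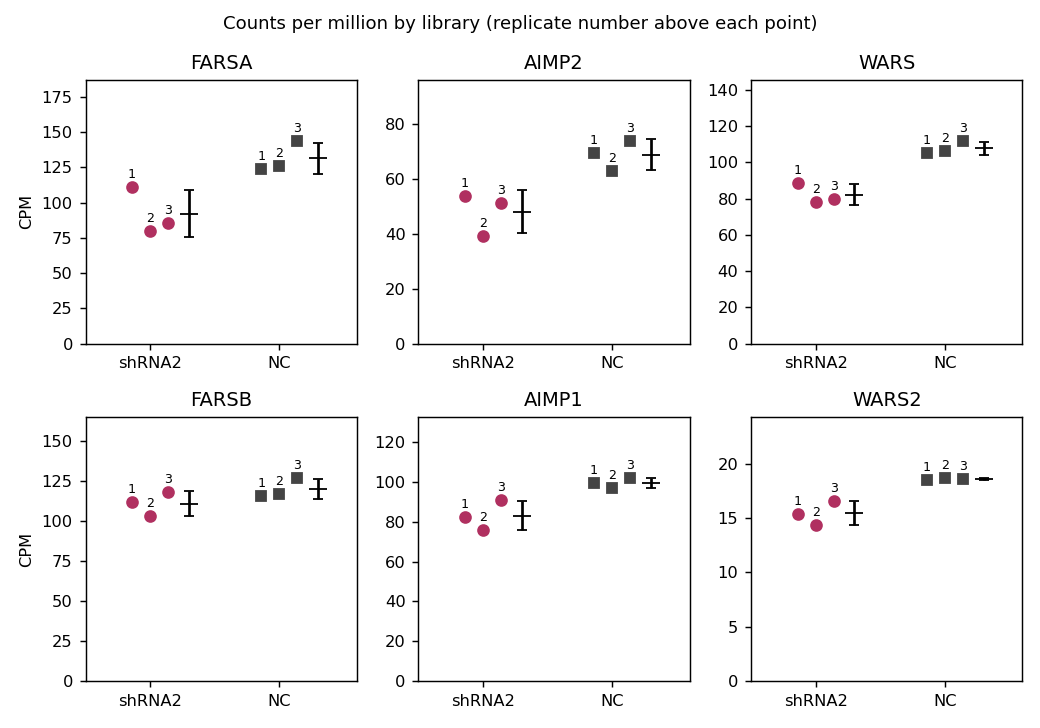
CPM in each library of FARSA, AIMP2 and WARS (upper row) and of FARSB, AIMP1 and WARS2 (lower row); each point is 1 library, shRNA2 on the left and NC on the right, with the mean and SD beside the points. In AIMP2, FARSA and WARS all shRNA2 points lie below all NC points.

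Partners of the called genes did not pass. FARSB, the beta subunit that pairs with FARSA, had 112, 103 and 118 CPM in shRNA2 cells, against 116, 117 and 127 CPM in NC cells, so that the groups overlapped (log2 -0.11, 95% interval -0.33 to 0.11, adjusted p = 0.452). FARS2, the mitochondrial enzyme for phenylalanine, which works as a single chain, had 17.6, 16.5 and 18.9 CPM in shRNA2 cells and 16.2, 14.6 and 21.3 CPM in NC cells (log2 0.02, 95% interval -0.31 to 0.35, adjusted p = 0.934). The FARSA to FARSB ratio per length was 1.59, 1.25 and 1.16 in shRNA2 cells, against 1.72, 1.73 and 1.82 in NC cells, and the groups did not overlap (difference of the mean log2 ratios -0.41, exact two-sided permutation p = 0.1, the smallest that 3 against 3 libraries can give). AIMP1, the second scaffold and the precursor of the cytokine EMAPII, had 82.5, 76.0 and 90.8 CPM in shRNA2 cells, against 99.7, 96.8 and 102 CPM in NC cells. Every shRNA2 library lay below every NC library, but the change missed the threshold (log2 -0.26, 95% interval -0.48 to -0.04, adjusted p = 0.101). WARS2, the mitochondrial tryptophan enzyme, had 15.4, 14.4 and 16.6 CPM in shRNA2 cells, against 18.5, 18.7 and 18.6 CPM in NC cells, also without overlap and short of the threshold (log2 -0.27, 95% interval -0.53 to -0.01, adjusted p = 0.135).

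GARS and KARS make the glycine and lysine enzymes of both compartments. GARS had 264, 279 and 312 CPM in shRNA2 cells, against 304, 305 and 329 CPM in NC cells, and the groups overlapped (log2 -0.13, 95% interval -0.35 to 0.09, adjusted p = 0.387). KARS had 421, 353 and 408 CPM in shRNA2 cells, against 478, 473 and 528 CPM in NC cells. No KARS library of shRNA2 reached the NC range, and the change missed the threshold (log2 -0.32, 95% interval -0.56 to -0.09, adjusted p = 0.0582).

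The enzymes of the multi-synthetase complex had a median log2 fold change of 0.00, with 4 of 8 below 0, 4 above and 0 called. Over all tested genes 6835 of 13896 were below 0 and 17.3% were called. IARS, for isoleucine, had 459, 461 and 412 CPM in shRNA2 cells and 456, 461 and 406 CPM in NC cells (log2 0.01, 95% interval -0.22 to 0.24, adjusted p = 0.961). EPRS was as near to no difference, at 346 ± 14.6 CPM in shRNA2 cells and 346 ± 18.2 CPM in NC cells (SD, n = 3 each; log2 0.00, 95% interval -0.21 to 0.21). QARS, for glutamine, stood at 212 ± 13.6 CPM in shRNA2 cells and 189 ± 9.45 CPM in NC cells (SD, n = 3 each; log2 0.17, adjusted p = 0.249), and DARS and LARS at log2 0.09 and 0.06. RARS and MARS, for arginine and methionine, had log2 -0.16 and -0.15, and KARS the lowest value of the complex. MARS shares 982 bases with DDIT3 on the other strand, a gene of the amino acid response that fell (288, 252 and 341 counts in shRNA2 cells, against 513, 516 and 598 in NC cells; log2 -0.96 ± 0.15, adjusted p = 0.00204), and reads there could come from either gene.

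All 11 tested cytosolic enzymes outside the complex had a log2 fold change below 0, with a median of -0.16. Of these, 2 (FARSA and WARS) were called. Over all tested genes 6835 of 13896 were below 0, 17.3% were called and 7.58% were called lower. TARS, for threonine and the most abundant member in CPM, had 459, 447 and 486 CPM in shRNA2 cells, against 525, 524 and 549 CPM in NC cells. The TARS groups did not overlap and the change missed the threshold (log2 -0.20, 95% interval -0.41 to 0.01, adjusted p = 0.174). AARS, for alanine, had 361, 364 and 345 CPM in shRNA2 cells and 359, 362 and 365 CPM in NC cells, which is a difference within the spread between libraries (log2 -0.02, 95% interval -0.22 to 0.18, adjusted p = 0.901). HARS (histidine), at 156 ± 19.9 CPM in shRNA2 cells and 192 ± 10.6 CPM in NC cells (SD, n = 3 each), did not overlap between groups (log2 -0.31, adjusted p = 0.0797). YARS, for tyrosine, did not overlap either (log2 -0.24, adjusted p = 0.118), while SARS, NARS and CARS, for serine, asparagine and cysteine, had log2 -0.16, -0.12 and -0.11. The difference between enzymes inside and outside the complex was not tested. Synthetases also fall into class I and class II, a pair of unrelated catalytic folds. Of tested genes, 1 of 17 in class I (WARS) and 1 of 18 in class II (FARSA) were called, beside 17.3% of all genes. The class medians were -0.10 and -0.13.

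**Figure D2:**
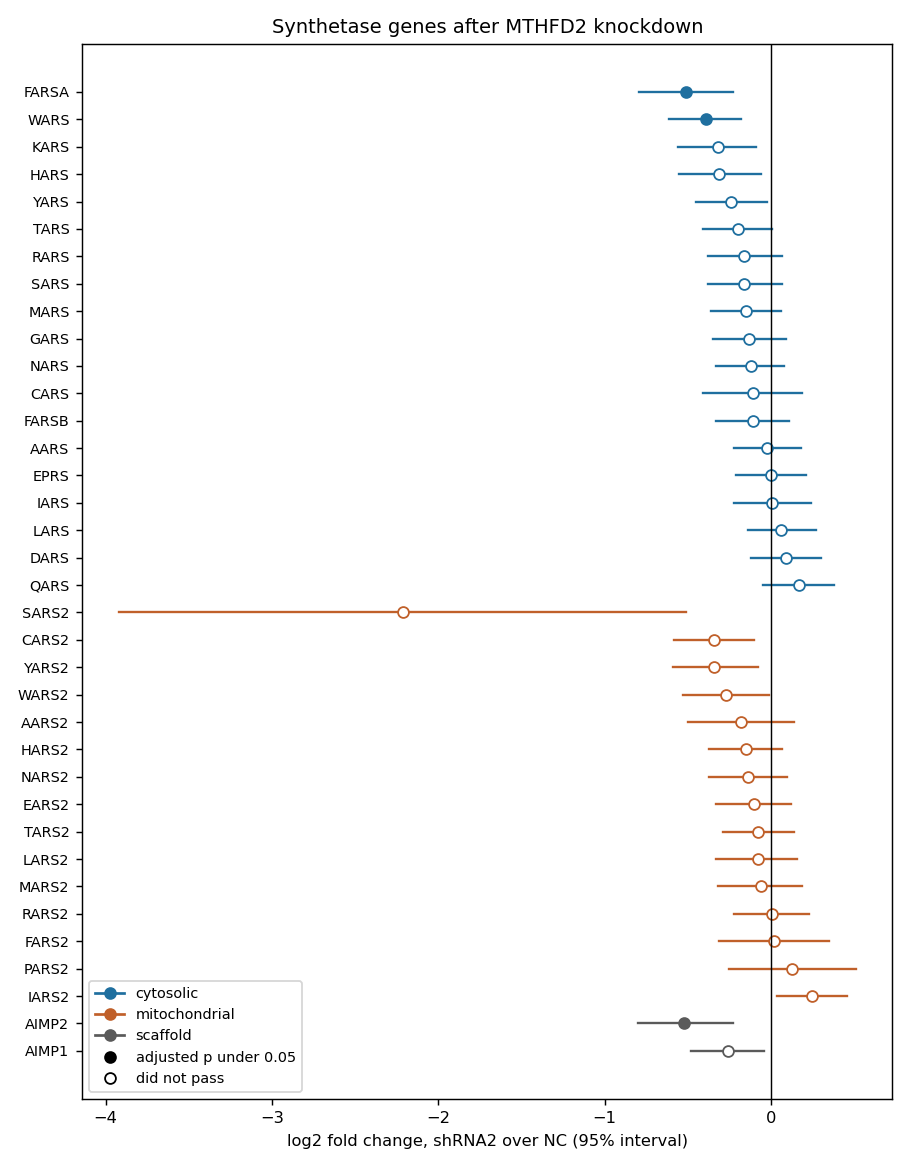
Log2 fold change of tested members, shRNA2 over NC, with its 95% interval, by compartment; filled markers passed an edgeR adjusted p under 0.05. AIMP2, FARSA and WARS are the called genes, and most other intervals cross 0.

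No mitochondrial enzyme passed the edgeR test (0 of 16 tested, beside 17.3% of all genes). There were 5 at an unadjusted p under 0.05 (CARS2, SARS2, WARS2 and YARS2 lower, IARS2 higher), beside 4636 of all 13896 genes tested. DESeq2 called 3 (CARS2, SARS2 and YARS2), where it called 19.4% of all genes. SARS2 had at most 52 counts in a library. The median log2 fold change of the mitochondrial enzymes was -0.09, against -0.13 for the 19 tested cytosolic enzymes, of which 2 were called (10.5%). CARS2, for cysteine, came closest, at 41.9, 34.7 and 37.1 CPM in shRNA2 cells, against 46.2, 48.9 and 49.2 CPM in NC cells (log2 -0.34 ± 0.11 SE, adjusted p = 0.0502, and 0.00474 to 0.148 over the alternatives). YARS2, for tyrosine, had 64.4, 52.7 and 66.4 CPM in shRNA2 cells, against 77.4, 70.7 and 83.4 CPM in NC cells (log2 -0.34, adjusted p = 0.0709). Neither pair of groups overlapped. YARS2 shares 18161 bases with DNM1L on the other strand, and CARS2 shares 868 with ING1, so reads there could come from either gene. DNM1L had 3669, 3754 and 3217 counts in shRNA2 cells and 3029, 3545 and 3156 in NC cells (log2 0.05, adjusted p = 0.732). IARS2, for isoleucine, ran the other way, at 298, 314 and 329 CPM in shRNA2 cells, against 270, 271 and 250 CPM in NC cells (log2 0.25, 95% interval 0.04 to 0.46, adjusted p = 0.093). It was the only member whose shRNA2 libraries all lay above the NC libraries. The other mitochondrial enzymes apart from SARS2 and WARS2 lay between log2 -0.18 for AARS2 and 0.13 for PARS2, the enzymes for alanine and proline. Among them were NARS2 (asparagine) at -0.14, EARS2 (glutamate) at -0.10 and MARS2 (methionine) at -0.06.

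Groups did not overlap in CPM for 15 of the 37 tested members, 14 of them lower and 1 higher in shRNA2 cells, and over all tested genes the share was 39.1%, with 19.0% lower in shRNA2 cells. By compartment these were 8 cytosolic members, all lower, 5 mitochondrial members, 4 of them lower, and both scaffolds. Summed over its genes, the cytosolic group reached 4721, 4515 and 4727 CPM in shRNA2 cells, against 4993, 5043 and 5139 CPM in NC cells. The mitochondrial group held 929.5, 934.6 and 935.2 CPM in shRNA2 cells, against 926.4, 930.5 and 928.3 CPM in NC cells. The cytosolic sums did not overlap between groups, whereas the mitochondrial sums did. The mitochondrial mean was 933.1 ± 3.13 CPM in shRNA2 cells and 928.4 ± 2.05 CPM in NC cells (SD, n = 3 each), a total to which IARS2 gave 314 ± 15.6 CPM in shRNA2 cells and 264 ± 11.9 CPM in NC cells.

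SARS2, the mitochondrial serine enzyme, was barely read. It had 11, 4 and 1 counts in shRNA2 cells, against 6, 14 and 52 in NC cells, and the groups overlapped (log2 -2.21, 95% interval -3.92 to -0.51, adjusted p = 0.0709). Without NC replicate 3, which held most of the counts, the log2 fold change was -0.98 (adjusted p = 0.444, and 0.000162 to 0.444 over all alternatives). SARS2 is overlapped on its own strand over 15493 bases by AC011455.2, a protein-coding gene of the annotation that was not analysed here, so reads there could come from either gene. It also overlaps MRPS12 over 349 bases on the other strand, and MRPS12 had 10, 1 and 6 counts in shRNA2 cells and 63, 8 and 8 in NC cells.

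VARS and VARS2, the valine enzymes, are listed at 0 counts in all 6 libraries and could not be tested. Both lie on chromosome 6 in the major histocompatibility region, and of the 94 protein-coding genes at chr6:30408242-32295953, the stretch from VARS2 to VARS with 500000 bases on each side, 75 (79.8%) were listed at 0 in every library. Elsewhere this held for 3759 of 18708 coding genes (20.1%). TUBB and DDX39B, genes that most cells use, were also at 0 there, and BAG6 had 1 count over all libraries (these 3 were named after their values were seen). A value of 0 for VARS and VARS2 therefore says only how they are listed.

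On the scale of CPM per kilobase of exon, which allows levels of different genes to be compared, cytosolic enzymes had a median of 81.2 in shRNA2 cells and 78.2 in NC cells, and mitochondrial enzymes 12.3 in shRNA2 cells and 13.3 in NC cells. KARS stood highest, at 162 ± 14.8 in shRNA2 cells and 203 ± 12.5 in NC cells (SD, n = 3 each), and SARS, GARS, TARS and AARS followed, at 119, 108, 102 and 103 in shRNA2 cells with SDs between 2.94 and 9.24, so that neighbours from SARS to AARS did not differ beyond their spread in these cells. IARS2 was the most abundant mitochondrial gene per length, at 88.2 ± 4.39 in shRNA2 cells and 74.1 ± 3.34 in NC cells. CARS was the lowest cytosolic gene, at 6.37 ± 0.565 in shRNA2 cells.

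**Figure D3:**
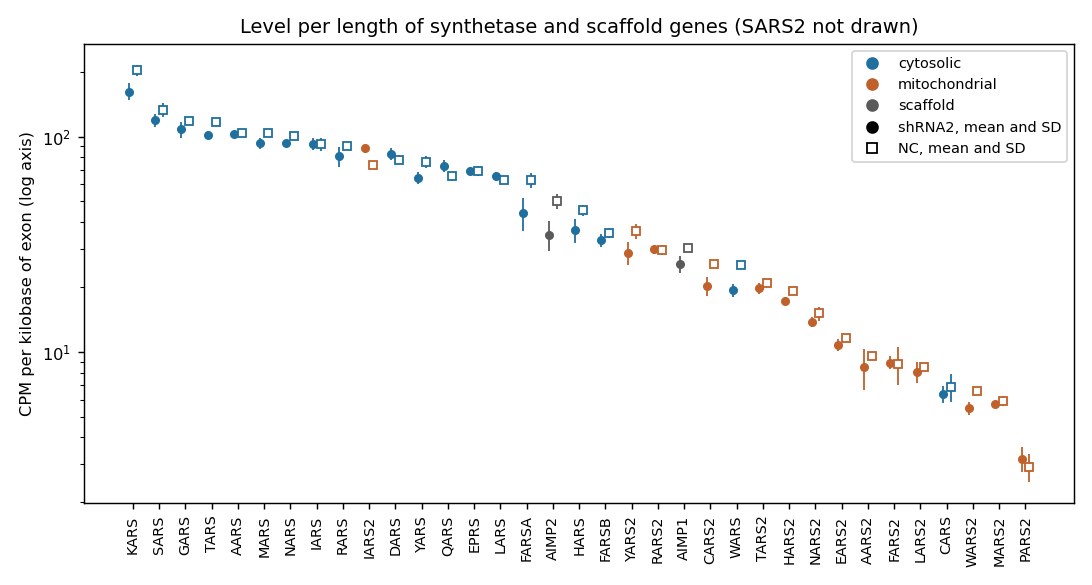
Level per length (CPM per kilobase of exon, log axis) of the members, ordered by level, shRNA2 to the left of NC. Points are means and bars the SD over 3 libraries. SARS2 is left out because its SD exceeds its mean in NC cells. Cytosolic genes fill the top of the order except IARS2, and WARS and CARS stand among the mitochondrial genes.

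For each amino acid with both genes, the cytosolic to mitochondrial ratio was computed per library. Of 17 such ratios, 9 were lower and 8 higher in shRNA2 cells, with a median difference of -0.10 on the log2 scale, and 3 did not overlap between groups, all lower. FARSA over FARS2 had a ratio per length of 5.96, 4.60 and 4.29 in shRNA2 cells, against 7.25, 8.13 and 6.38 in NC cells (log2 difference -0.56). IARS over IARS2 had 1.14, 1.09 and 0.929 in shRNA2 cells, against 1.25, 1.26 and 1.21 in NC cells (log2 difference -0.24), where IARS itself stood at log2 0.01. RARS over RARS2 differed by -0.17, with 2.89 in the highest shRNA2 library and 2.90 in the lowest NC library. Each had an exact two-sided permutation p of 0.1, the smallest possible with 3 against 3, and 0.475 after Benjamini-Hochberg adjustment over 19 ratios, so no ratio passed. CARS over CARS2 was the only ratio below 0 on the log2 scale in both groups, at -1.66 in shRNA2 cells and -1.91 in NC cells. In that pair the mitochondrial gene is the more abundant per length.

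**Figure D4:**
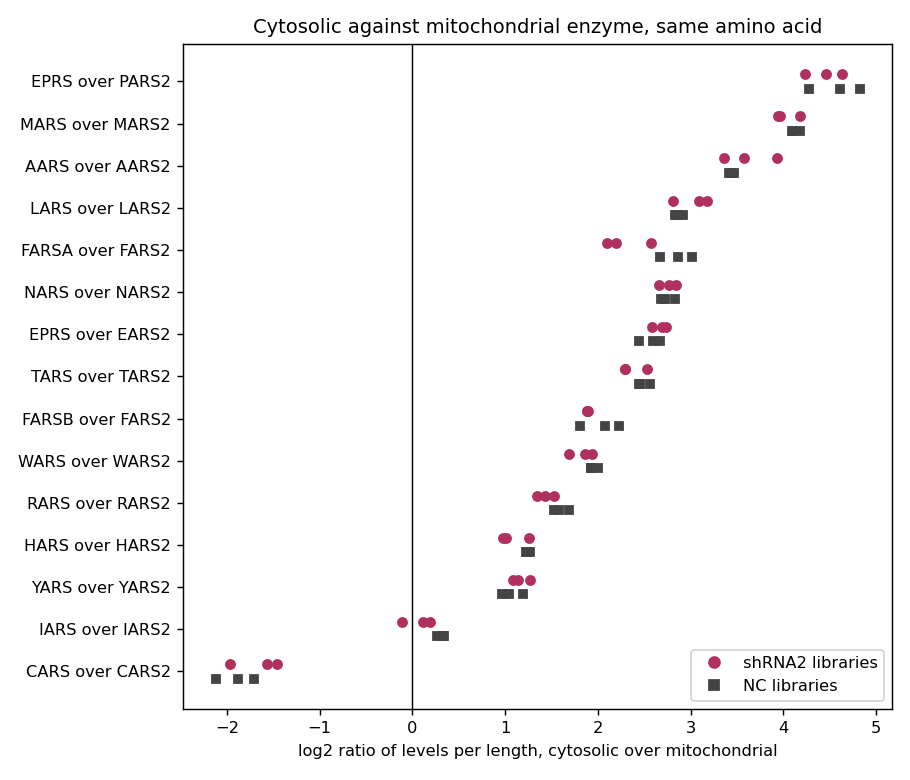
Log2 ratio of the cytosolic to the mitochondrial gene per length, by library (SARS over SARS2 not drawn), shRNA2 circles above NC squares. FARSA over FARS2, IARS over IARS2 and RARS over RARS2 are the ratios whose shRNA2 libraries all lie below the NC libraries.

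HARS and HARS2, the histidine pair, lie head to head on chromosome 5 with start sites 85 bases apart, and their start windows share 184 bases (chr5:140691321-140691504). Their counts could share reads over 437 bases. HARS had 177, 137 and 153 CPM in shRNA2 cells, against 187, 186 and 205 CPM in NC cells, and HARS2 49.5, 46.7 and 50.9 CPM in shRNA2 cells, against 53.2, 53.0 and 56.8 CPM in NC cells. Both were lower without overlap and neither passed.

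Start windows (250 bases before to 50 after the RefSeq start, GRCh38.p14) were found for 32 of the 39 members and searched on both strands. Genes not searched included AARS2, DARS, LARS, VARS, VARS2 and YARS. The motif TGATGCAA, the core of the C/EBP-ATF or amino acid response element that ATF4 binds, was found for 6 of the 16 cytosolic genes and 0 of the 14 mitochondrial genes that have a window. It was found for 0.703% of the 10241 tested genes with a window, and in 0.866% of all 35116 windows. None of these motif matches overlaps another motif searched. The 6 genes are AARS, CARS, IARS, MARS, NARS and TARS, and the sites are shown because ATF4 is known to act through this element at synthetase genes. Each line holds 30 bases on the gene's strand, and capitals mark the motif, which reads TTGCATCA where it lies on the other strand (AARS chr16:70289675-70289704 minus, CARS chr11:3057407-3057436 minus, IARS chr9:92293692-92293721 minus, MARS chr12:57488053-57488082 plus, NARS chr18:57621804-57621833 minus, TARS chr5:33440956-33440985 plus).
AARS: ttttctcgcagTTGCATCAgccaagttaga
CARS: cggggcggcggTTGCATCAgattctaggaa
IARS: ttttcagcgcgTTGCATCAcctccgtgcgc
MARS: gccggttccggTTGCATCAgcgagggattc
NARS: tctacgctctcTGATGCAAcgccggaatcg
TARS: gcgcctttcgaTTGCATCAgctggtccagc

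Of these 6 genes 0 were called in the main fit, and their log2 fold changes lay between -0.20 and 0.01 with a median of -0.12. With the GC content and length trends described below removed, TARS (log2 -0.33, edgeR adjusted p = 0.0129) and NARS (-0.20, 0.0387) passed. AARS, CARS, IARS and MARS did not, and 29.0% of all genes passed in that fit. Of the 72 tested genes with the motif, 18.1% were called, 6 lower and 7 higher. A motif match describes a sequence and is not evidence of binding.

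Of the called genes, AIMP2 and WARS held another motif in the window of an alternative start. AIMP2 held CACGTG, the E-box that MYC family factors bind (75 bases upstream of its second start, chr7:6009478-6009507 plus), and WARS held the pattern of the interferon-stimulated response element, GAAA followed after any 2 bases by GAAA (55 bases upstream of its second start, chr14:100375383-100375412 minus), shown with the motif in capitals.
AIMP2 E-box: ccgggcgctggcCACGTGcaggtaggagcg
WARS interferon type: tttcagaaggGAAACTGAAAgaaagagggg

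CACGTG was in 7.26% of all windows, and 12.5% of the tested genes with a window held it. Of the 32 members with a window, 5 held it: AIMP2, CARS2, EARS2, IARS and MARS2. Of these AIMP2 was called, and 17.7% of all tested genes with CACGTG were called. The interferon pattern was in 3.57% of all windows and was held by 3.88% of the tested genes with a window. Of the 32 members, 2 held it, WARS and EARS2. WARS was called, and 19.9% of all tested genes with the pattern were called. FARSA held none of the 3 motifs in its windows.

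**Figure D5:**
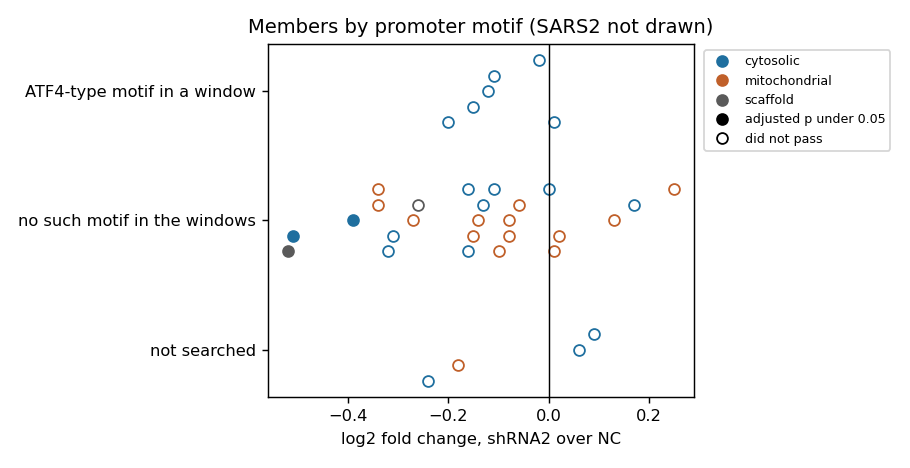
Log2 fold change, shRNA2 over NC, of members with TGATGCAA in a start window, without it, and not searched (SARS2 not drawn); filled points passed an edgeR adjusted p under 0.05. The 6 genes with the motif lie between -0.20 and 0.01.

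Other genes of tRNA supply and use were read as lists. Of 10 tested genes that help charging (including the mitochondrial amidotransferase and formyltransferase), 0 were called by edgeR (17.3% of all genes), with a median of -0.07. At an unadjusted p under 0.05 there was 1, beside 4636 of all 13896 genes tested. DTD1, which removes D-amino acids from tRNA, stood at 71.0 ± 6.4 CPM in shRNA2 cells and 75.1 ± 7.07 CPM in NC cells (SD, n = 3 each; log2 -0.08, adjusted p = 0.653). GATC, a subunit of that amidotransferase, had log2 0.11 (adjusted p = 0.51). Of 21 tRNA processing genes, with a median of -0.20, 1 fell (4.76%), where 7.58% of all tested genes were lower. It was RPP40 of ribonuclease P, at 14.7 ± 1.09 CPM in shRNA2 cells and 19.4 ± 0.541 CPM in NC cells (SD, n = 3 each; log2 -0.40 ± 0.12 SE, edgeR adjusted p = 0.0387).

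Among 31 enzymes that modify tRNA, 11 fell (35.5%) and 0 rose, with a median of -0.20, where 7.58% of all tested genes were lower and 9.71% higher. TRMT61A, which methylates adenosine in the tRNA body, had 24.8, 13.2 and 15.3 CPM in shRNA2 cells, against 40.1, 36.6 and 44.1 CPM in NC cells (log2 -1.18 ± 0.20 SE, adjusted p = 0.00311). CTU1, which adds sulfur to wobble uridine, fell by 1.10 on the log2 scale (adjusted p = 0.0105), the dihydrouridine synthase DUS3L by 0.88 (adjusted p = 0.00312) and the pseudouridine synthase PUS1 by 0.71 (adjusted p = 0.0177). The list was chosen with earlier results of these data known, so its excess over all genes is not independent support. Its values are from the fit that kept the GC content and length trends described below. The difference between these enzymes and the synthetases was not tested.

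Of 10 elongation factors 1 rose (10.0%), where 9.71% of all tested genes were higher. It was EEF1A2, an isoform of the factor that brings charged tRNA to the ribosome. It had 51.2, 67.3 and 71.1 CPM in shRNA2 cells, against 24.1, 25.5 and 27.9 CPM in NC cells (log2 1.29 ± 0.14 SE, adjusted p = 0.000263). None of the others passed the test, with 6 of the 10 below 0 and a median of -0.10. The lowest was EEF1D, a subunit of the exchange factor for EEF1A (named after its value was seen), at 133, 108 and 124 counts in shRNA2 cells, against 294, 743 and 127 in NC cells, where NC replicate 2 stood apart (log2 -1.73 ± 0.56 SE, adjusted p = 0.0749).

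In the amino acid response, 8 of 19 tested genes fell and 1 rose, with a median of -0.11. Over all tested genes the shares were 7.58% lower and 9.71% higher. This list too was chosen with earlier results of these data known, so the excess is not independent support. SLC7A5, the light chain of a transporter of large neutral amino acids, had 627, 482 and 431 CPM in shRNA2 cells, against 1330, 1210 and 1300 CPM in NC cells (log2 -1.32 ± 0.14 SE, adjusted p = 0.000261). The transcription factors ATF5 and CEBPB fell by 1.20 and 1.12 on the log2 scale (adjusted p = 0.00323 and 0.00079), and the lipoprotein receptor VLDLR was higher by log2 1.15 (adjusted p = 0.00505). DDIT3, TRIB3, SESN2, PSAT1 and SLC3A2 made up the rest of those that fell.

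GC content and exonic length moved with the fold change over all genes. Across 12553 genes the Spearman correlation of the log2 fold change was -0.27 with GC content and 0.31 with length, and across the 37 members it was -0.26 and 0.29 (descriptions across genes of the same libraries, which are not independent replicates). With those trends removed from each library, 12 members passed, 11 lower and QARS higher (log2 0.23), where 29.0% of all genes passed. AIMP2, FARSA and WARS stayed among them, and KARS, HARS, NARS, RARS, TARS, AIMP1, WARS2 and YARS2 joined. This alternative was chosen after the data were seen.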

How the data were processed

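RNA from T24 cells was sequenced as 3 shRNA2 and 3 NC libraries, grouped by title. Values are raw counts for each gene symbol, as the authors deposited them. HISAT2 2.0.4 and GRCh38 are named per the submitters' processing notes. Which counter, annotation and strand setting were used is not given in the sources used here. Libraries held 17801990 to 19978392 counts, and 25308 of 54261 genes had a count. For a count of 0 the upper 95% limit was taken as 3 counts, from counting error only. These 3 counts equal 0.149 to 0.171 CPM. Libraries of a group differed by more than sampling noise (chi-square over degrees of freedom 2.56 to 31.6). Labels do not say whether libraries came from separate cultures, so the p-values cover the spread among these libraries alone, possibly a technical one.

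Genes kept by filterByExpr were scaled by TMM and tested with edgeR 4.0.16 (glmQLFit, robust, and glmQLFTest, R 4.3.3), shRNA2 against NC, calling genes at a Benjamini-Hochberg adjusted p under 0.05 over the 13896 tested. All adjusted p-values are from edgeR unless DESeq2 (1.42.0) is named. CPM uses TMM-scaled library sizes. Coordinates, exonic length and GC content are from GENCODE 29 (12553 tested genes matched, 90.3%), start windows from RefSeq GRCh38.p14. The procedure was tested on simulated data. A result for 1 member is not reported here by name, though counts and medians include it. Members and lists were chosen with earlier results of these data known. Values per library are given for called members, their partners, GARS, KARS and the 4 most abundant members not called. Of each list, up to 4 called genes of largest fold change are named, or 2 of the highest level. Other genes named, such as CARS2, YARS2, HARS, IARS2 and DDIT3, were chosen after their values were seen.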

Additional observations from a re-analysis of the deposited data

How the results depend on the processing

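Over all alternatives for 36 members, 398 of 467 comparisons kept direction and side of the threshold, 8 lost the call, 37 gained it and 24 changed sign. Genes called moved to 5062 with the replicate block, 4432 with shRNA2 replicate 2 alone and 3639 with GC content and length trends removed, and to 986 to 2645 when a library was left out. Members called, 3 here, became 7 with DESeq2, 5 without the filter, 11 with the block, 10 with shRNA2 replicate 2 alone, 12 with GC content and length trends removed, and 0 to 6 when a library was left out. Cytosolic enzymes called became 5 with the block, 6 with replicate 2 alone and 8 with the trends removed (0 to 3 with a library left out). Mitochondrial enzymes called became 1 with RLE scaling, 3 with DESeq2, 2 without the filter, 4 with the block, 2 with replicate 2 alone and 2 with the trends removed (0 to 1). The cytosolic median became -0.22 with replicate 2 alone (-0.16 to -0.11 with a library left out), and the mitochondrial median -0.13 with the trends removed (-0.12 to -0.04). The share of all genes called moved in these fits too. It was 19.4% with DESeq2, 36.4% with the block and 29.0% with the trends removed, beside 17.3% in the main fit. Without the filter, 3028 of 25308 genes were called. A larger number of members called is therefore not by itself a result about the family. The causes of these changes were not tested. Replicate 2 alone (which is assumed to vary like the NC libraries) and trend removal were chosen after the data were seen.

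Sign changes were all in genes near 0 and not called: AARS 0 with replicate 2 alone and 0.01 with the trends removed, IARS -0.13 and LARS -0.11 with the trends removed, EPRS 0 with the stricter filter and 0.06 with replicate 2 alone, FARS2 -0.08 with replicate 2 alone, and RARS2 0 with RLE and DESeq2, -0.05 with replicate 2 alone and -0.04 with the trends removed. With a library left out, EPRS ran from -0.05 to 0.02, FARS2 from -0.10 to 0.19, IARS from -0.05 to 0.06, RARS2 from -0.04 to 0.03 and CARS from -0.20 to 0.

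Same-numbered libraries correlated at -0.02, 0.30 and 0.35 in their deviations, and differently numbered ones at -0.40 to 0.16. These values do not settle whether the numbers pair the libraries. The labels state no pairing, so the main fit used none, and the fit with the numbers as a block is given above. With a library left out, log2 fold changes ran from -0.60 to -0.39 for AIMP2, -0.66 to -0.42 for FARSA and -0.45 to -0.36 for WARS. SARS2, with at most 52 counts in a library, ran from -3.25 to -0.98.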
